A study of Arabidopsis thaliana with 6 samples.

Results

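The floral organ identity genes of Arabidopsis thaliana are described here in flower buds of wild type and of the atcep1 mutant. The group holds 10 loci taken by name, which are APETALA1 (AP1), CAULIFLOWER (CAL), FRUITFULL (FUL), APETALA3 (AP3), PISTILLATA (PI), AGAMOUS (AG) and SEPALLATA1 to SEPALLATA4 (SEP1, SEP2, SEP3 and SEP4). They were matched by locus identifier among the 25964 loci that had a read in any library, and all 10 had reads in all 6 libraries. The rule takes them by name and uses no measured value. The plants were of the Columbia ecotype and were wild type or mutant for CEP1, which encodes a cysteine protease of the papain type; the labels name no allele. Buds of each genotype were sorted by anther development into classes called stage A (anthers at 5 to 6), stage B (at 7 to 9) and stage C (at 10 to 11), and whole buds were sequenced, with 1 library for each genotype and stage. All plants grew on soil in a 14 h light and 10 h dark cycle at 23 °C.

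The members encode MADS-domain transcription factors that bind DNA in multimeric complexes and so give each whorl of the flower its identity. In the textbook model, A-class genes specify sepals, A with B petals, B with C stamens, and C carpels, while E-class SEPALLATA proteins join every complex. AP1 and CAL also give the young flower its identity, and FUL, their close relative, acts in the meristem and in the growing fruit. AP3 and PI act as an obligate pair in petals and stamens, and AG also ends the activity of the floral meristem. Buds of this age have passed the time at which organ identity is set, and the members remain active in the growing organs.

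Libraries held 4037584, 4100078 and 4247731 uniquely mapped reads in the wild type (stage A, then B, then C), against 4135822, 4162141 and 4411953 for atcep1. The 10 genes together took between 0.0925% (wild-type stage C) and 0.132% (atcep1 stage B) of the reads. CEP1 itself had 0, 1 and 6 wild-type reads against 4, 5 and 6 atcep1 reads, around the floor of 3 reads, so its counts give no check of the genotype labels. No group had more than 1 library, and nothing says whether the libraries came from separate plants.

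The sequences below bear on how far the reads of the members can be compared with each other. The files count reads that map uniquely to a transcript model, and 17721 of 17722 models with 1 read were covered over 49 bases, to within 0.5 base. The first coding exon of AP1, CAL and FUL encodes most of the DNA-binding MADS domain and is nearly alike in all of them. It is printed 5′ to 3′ on the coding strand from RefSeq TAIR10.1, with capitals in CAL and FUL for bases that differ from AP1 (AP1 at chr1:25985918-25986102, CAL at chr1:9103326-9103510, FUL at chr5:24505829-24506013, all on the minus strand).
AP1: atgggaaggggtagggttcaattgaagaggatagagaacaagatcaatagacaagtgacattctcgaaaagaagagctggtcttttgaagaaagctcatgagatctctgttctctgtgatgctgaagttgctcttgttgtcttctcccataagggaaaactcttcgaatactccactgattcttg
CAL: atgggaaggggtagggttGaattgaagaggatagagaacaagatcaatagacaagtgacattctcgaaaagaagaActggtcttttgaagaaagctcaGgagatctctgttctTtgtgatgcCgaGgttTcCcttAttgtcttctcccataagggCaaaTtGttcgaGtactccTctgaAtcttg
FUL: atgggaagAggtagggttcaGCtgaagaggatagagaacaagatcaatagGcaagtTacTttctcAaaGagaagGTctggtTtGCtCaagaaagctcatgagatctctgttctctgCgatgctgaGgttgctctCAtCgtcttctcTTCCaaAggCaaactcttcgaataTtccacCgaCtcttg

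Over these 185 bases CAL differed from AP1 at 15 positions (91.9% identity) and FUL differed from AP1 at 28 (84.9% identity). The longest run shared by AP1 and CAL was 56 bases, longer than a read. Over the whole AP1 and CAL transcripts, 8 windows of 49 bases occurred more than once in the genome, out of 1180 in AP1 and 990 in CAL, so few of their reads could be lost to this likeness. No other member had such a window.

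The AG and SEP1 reads came from a small piece of each gene. Of AG only the model AT4G18960.1 was listed, and its reads covered 94 to 103 of 1532 bases. That is the size of the stretch in which a 49-base window belongs to that model and to no other RefSeq transcript of AG. This stretch has 104 coding bases and spans the junction of 2 exons (chr4:10384099-10387201, plus strand, TAIR10.1). For SEP1, the model AT5G15800.1 was covered over 93 to 95 bases, against a model-specific stretch of 95 bases that also spans a junction (chr5:5151641-5151896, minus strand). The capitals mark the last base of one exon and the first of the next.
AG: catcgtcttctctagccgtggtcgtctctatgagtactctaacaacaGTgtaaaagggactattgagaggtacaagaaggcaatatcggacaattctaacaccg
SEP1: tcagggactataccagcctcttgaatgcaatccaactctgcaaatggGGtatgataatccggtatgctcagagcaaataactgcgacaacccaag

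FUL was covered over 273 to 312 of 1113 bases (363 lie in windows specific to the listed model), SEP3 over at most 94 of 948 bases of the model AT1G24260.1, and each SEP4 model over at most 98 bases. AP1, AP3, PI and SEP2 were covered over 88.2% to 99.4% of their length, and CAL over 55.1% to 77.4%. For FUL, AG, SEP1, SEP3 and SEP4 the values below are therefore taken to describe the stretches specific to the listed models. This was inferred from the size of the coverage, since read positions were not given. For these genes a change of the whole gene and a change in the share of its isoforms cannot be told apart.

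RPKM, the reads scaled to the length of the model and to the library total, ordered the members by their mean over the 6 libraries as AP3 (274), PI (222), AP1 (210), SEP2 (190), FUL (15.6), CAL (12.3), SEP1 (11.8), SEP3 (9.41), AG (6.91) and SEP4 (0.966). A second scale, added after the coverage had been seen, counted reads per 1000 windows of 49 bases, scaled to the same library total. It took only the model-specific windows of FUL, AG, SEP1, SEP3 and SEP4. For AP1, CAL, AP3, PI and SEP2, covered over most of their length, it took every window of the listed model. The measure was thus not the same for all members. AP1, PI and SEP2 also have 3, 2 and 2 RefSeq transcripts, yet their listed models were covered over most of their length. The RefSeq transcripts may therefore differ from the models on which the reads were counted, which limits the second scale. On the second scale the mean level was 344 for SEP1, 287 for AP3, 232 for PI, 218 for AP1 and 197 for SEP2. It was 191 for SEP3, 189 for AG, 55.1 for FUL, 32.5 for SEP4 and 12.9 for CAL. By the mean, SEP1 thus moved from place 7 to place 1, and AG and SEP3 came close to SEP2. In atcep1 stage A, however, AP3 (290) lay above SEP1 (286), and the ranges of SEP1 (286 to 461), AP3 (220 to 334) and PI (168 to 266) each overlapped with the next. CAL, which has 1 RefSeq transcript, had the lowest mean on the second scale, and in wild-type stage C it was above SEP4 (9.04 against 7.05). Neighbours from AP1 to AG overlapped in range as well (AP1 from 151 to 295, SEP2 from 172 to 214, SEP3 from 145 to 251 and AG from 82.8 to 330), so their order was not resolved.

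**Figure D1:**
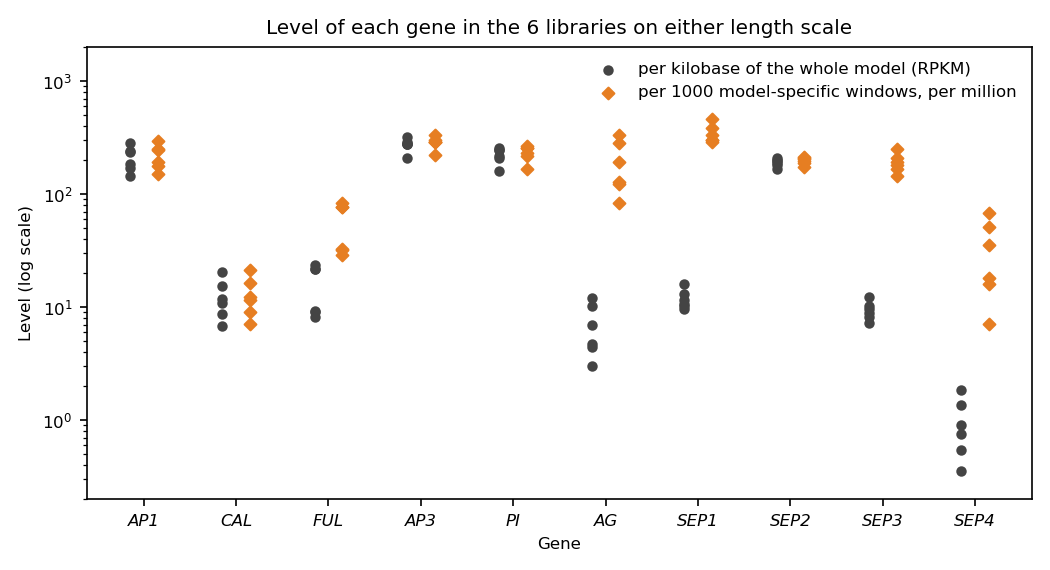
Level of each gene in the 6 libraries on a log axis, with both scales relative to the library total. Circles are RPKM, per kilobase of the whole transcript model, and diamonds are per 1000 windows of 49 bases. The diamonds count all windows of AP1, CAL, AP3, PI and SEP2, so the 2 scales nearly coincide there by construction. For the other genes they count model-specific windows only. The scales differ by 29.1 times for SEP1, 27.4 times for AG, 20.2 times for SEP3 and 3.53 times for FUL.

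Between genotypes, AP1, CAL, FUL and AG were higher in atcep1, while the B-class and SEPALLATA genes were not called. The test set each atcep1 library against the wild-type library of its stage (edgeR's quasi-likelihood F test, genotype and stage as additive terms, Benjamini-Hochberg adjustment over 16114 loci). Of the 9 members tested, 4 were higher at an adjusted p below 0.05 (AP1, CAL, FUL and AG), against 16% of all loci tested, and 0 were lower, against 11.5%. The median log2 fold change was 0.27 over the members and -0.00 over all loci tested. SEP4 had too few reads to be tested. In the RNA of whole buds, fewer cells of a type and less RNA per cell cannot be told apart. Such p-values set the genotype difference only against its variation between stages, not between replicates. The spread of each locus was also drawn toward that of the other loci, so it is not the gene's own alone.

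AP1 (AT1G69120, chr1:25982330-25986313, minus strand), the A-class regulator of sepals and petals, had 719 reads in the wild type at stage A, 926 at B and 888 at C, against 1192, 1448 and 1301 for atcep1. These are 145, 184 and 170 RPKM against 235, 283 and 240 RPKM, so the lowest atcep1 library lay above the highest wild-type library. The log2 fold change was 0.66 ± 0.09 (SE; adjusted p = 0.00138, edgeR). AP1 was higher in atcep1 at each of the 3 stages, with read ratios of 1.62 at stage A (exact 95% interval 1.47 to 1.78, counting error only), 1.54 at stage B and 1.41 at stage C.

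The ratio of AP1 to SEP2 inside each library needs no scaling between libraries. For every SEP2 read there were 0.756, 0.773 and 0.780 AP1 reads in the wild type, in stage order. In atcep1 there were 1.13, 1.23 and 1.06. SEP2 varied least of the members, and with AP3 or PI in its place the stage C gap was smaller or turned around. The AP1 to AP3 ratio of RPKM was 0.506, 0.666 and 0.812 in wild type against 0.847, 0.891 and 0.874 in atcep1. At stage C there were 888 AP1 and 745 PI reads in the wild type, against 1301 and 1181 in atcep1, a lower ratio to PI in atcep1. AP1 made up 16.1% to 22.0% of the members' summed RPKM in wild type and 23.7% to 25.3% in atcep1. Of the sum on the window scale it made up 9.67% to 11.5% and 13.0% to 14.0%.

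CAL (AT1G26310, chr1:9100153-9103603, minus strand), which shares the early role of AP1 in making a flower rather than a shoot, had 49, 29 and 38 wild-type reads against 88, 67 and 50 from atcep1. Its RPKM was 11.7, 6.81 and 8.62 without the mutation, against 20.5, 15.5 and 10.9 with it, and the ranges overlapped, since wild-type stage A lay above atcep1 stage C. The log2 fold change was 0.83 ± 0.21 (adjusted p = 0.0213, edgeR). CAL was not called without the stage A libraries (adjusted p = 0.102), without those of stage B (0.110) or with DESeq2 (0.0957); over its 10 alternatives the adjusted p ran from 0.00744 to 0.110. There were between 13.5 and 31.9 AP1 reads for each CAL read in any library.

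FUL (AT5G60910, chr5:24502482-24506143, minus strand; AGL8 in RefSeq), a regulator of fruit growth and of the meristem, had 41, 42 and 39 wild-type reads against 100, 109 and 107 from atcep1. The difference was similar at the 3 stages. FUL had 9.12, 9.20 and 8.25 RPKM in the wild type against 21.7, 23.5 and 21.8 in atcep1, with no overlap. The log2 fold change was 1.39 ± 0.17 (adjusted p = 7.64e-04, edgeR). The read ratio was 2.38 at stage A (1.64 to 3.51), 2.56 at stage B and 2.64 at stage C. Relative to AP1, FUL had 4.39% to 5.70% as many reads in wild type and 7.53% to 8.39% in atcep1.

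AG (AT4G18960, chr4:10382856-10388539, plus strand), the C-class gene of stamens and carpels, had 29, 19 and 29 wild-type reads against 65, 77 and 47 from atcep1. Their coverage had about the size of the stretch printed above, but read positions were not given. Its RPKM was 4.69, 3.02 and 4.46 against 10.3, 12.1 and 6.95, again without overlap. The log2 fold change was 1.30 ± 0.27 (adjusted p = 0.00912, edgeR). The ratio varied more between stages than that of FUL. It was 2.19 at stage A (1.39 to 3.52), 3.99 at stage B (2.39 to 6.99) and 1.56 at stage C, where the interval of 0.962 to 2.57 held 1.

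AP1, FUL and AG were thus 3 of the 9 members at a mean of 5 RPKM or more whose atcep1 values all lay above the wild-type values. The same held for 12.9% of all loci at that level, and the reverse, true of 0 members, for 20% of them. AG reached that level only through atcep1, with a mean of 9.76 RPKM there against 4.06 in wild type. AP1, FUL and AG were also called under all 10 alternative settings.

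**Figure D2:**
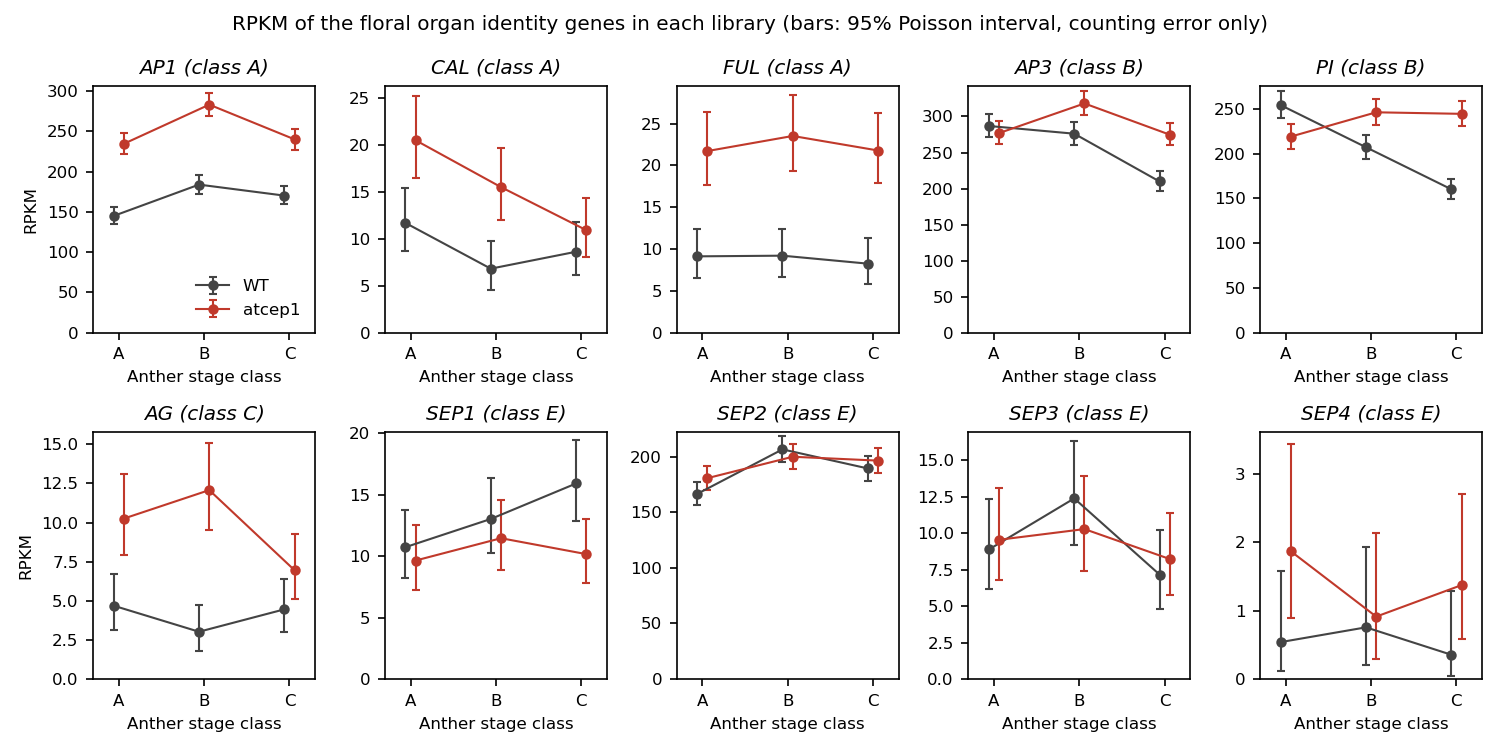
RPKM of each gene by anther stage class in wild type (grey) and atcep1 (red), 1 library per point, with 95% Poisson intervals that cover counting error only and axes that start at 0. The atcep1 point lies above the wild-type point of the same stage at every stage for AP1, CAL, FUL, AG and SEP4. The lines of PI and AP3 cross between stages A and B.

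The B-class genes were not called between genotypes. AP3 (AT3G54340, chr3:20119173-20121170, minus strand) had 1201, 1174 and 924 wild-type reads against 1188, 1373 and 1257 from atcep1, or 287, 276 and 210 RPKM against 277, 318 and 275 RPKM. PI (AT5G20240, chr5:6829042-6831515, plus strand), its partner in petals and stamens, had 1124, 930 and 745 wild-type reads against 992, 1122 and 1181 from atcep1, or 254, 207 and 160 RPKM against 219, 246 and 244 RPKM. In wild type both were lowest at stage C. In atcep1 PI was lowest at stage A, and AP3 had nearly equal values at stages A and C. The genotype log2 fold change was 0.23 ± 0.11 for AP3 (adjusted p = 0.159, edgeR) and 0.27 ± 0.15 for PI (adjusted p = 0.226, edgeR).

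Stage by stage, the PI read ratio of atcep1 to wild type was 0.862 at stage A (exact 95% interval 0.790 to 0.939), 1.19 at stage B (1.09 to 1.30) and 1.53 at stage C (1.39 to 1.68). For AP3 it was 0.966 at stage A (0.891 to 1.05), 1.15 at stage B and 1.31 at stage C (1.20 to 1.43). The order of the stages was thus alike in both genes, below 1 at stage A and highest at stage C. With 1 library of each kind, a change of the difference with stage could not be tested.

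Among the members, AP3 and PI had the profiles closest to each other over the 6 libraries, with a root mean square difference of 0.0996 in centred log2(RPKM + 1). The AP3 to PI read ratio stayed between 1.06 and 1.26. AP3 and PI together made up 60.2%, 52.6% and 47.8% of the members' summed RPKM in the wild type, in stage order, against 50.4%, 50.3% and 51.1% for atcep1. Of the sum on the window scale they made up 36.3%, 30.0% and 25.3%, against 27.7%, 28.1% and 30.4% for atcep1.

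The E-class genes gave no called difference. SEP2 (AT3G02310, chr3:464279-467074, minus strand) was the member with the narrowest range, at 951, 1198 and 1138 wild-type reads against 1057, 1177 and 1226 from atcep1, and 166 to 206 RPKM over all 6 libraries. Its genotype log2 fold change was 0.09 ± 0.09 (adjusted p = 0.472, edgeR). SEP1 (AT5G15800, chr5:5151334-5154154, minus strand) had 61, 75 and 95 wild-type reads against 56, 67 and 63 from atcep1, with a log2 fold change of -0.28 ± 0.17 (adjusted p = 0.255, edgeR). It was the only tested member with a value below 0. SEP3 (AT1G24260, chr1:8593642-8595909, minus strand), a hub of many MADS complexes, had 35, 50 and 30 wild-type reads against 38, 42 and 36 from atcep1 (log2 fold change 0.04 ± 0.22, adjusted p = 0.905, edgeR).

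SEP1 and SEP3 were each listed as 2 models. The second model of SEP1, AT5G15800.2, held 9, 3 and 7 wild-type reads against 1, 3 and 3 from atcep1, or 6.24% of the gene's reads over all libraries. For SEP3, the model AT1G24260.3 held 7, 13 and 8 wild-type reads against 4, 10 and 11 from atcep1, or 22.9%. These counts are too few to compare the isoforms between libraries. SEP4 (AT2G03710, chr2:1129289-1131838, plus strand) had 3, 4 and 2 wild-type reads against 10, 5 and 8 from atcep1, spread over 3 models. The SEP4 read ratio was 3.25 at stage A with an interval of 0.838 to 18.4, and the intervals at stages B and C held 1 as well. The SEP4 RPKM did not overlap between genotypes (0.355 to 0.755 against 0.912 to 1.86), on 9 wild-type and 23 atcep1 reads in all, and was not tested. The share of loci without overlap was taken only at a mean of 5 RPKM or more, so SEP4 has no such share beside it.

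**Figure D3:**
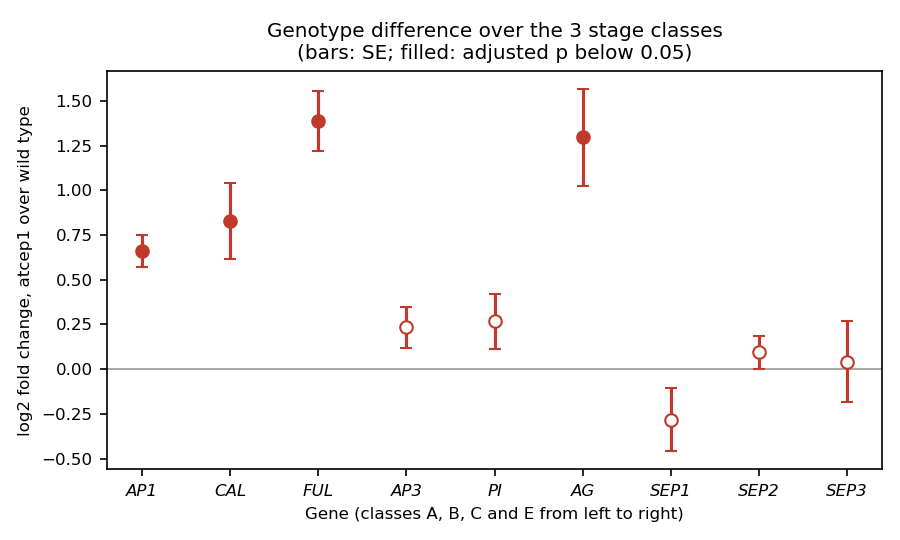
Log2 fold change of atcep1 over wild type for the 9 tested genes, with stage as an additive term (edgeR), bars showing 1 SE. Filled circles (AP1, CAL, FUL and AG) have an adjusted p below 0.05, and open circles do not.

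Within a stage, a gene was counted where log2((atcep1 RPKM + 1)/(wild-type RPKM + 1)) was at least 1 and the higher RPKM at least 5, with no test. At stage A only FUL passed (1.17), against 6.23% of loci at that level. At stage B, FUL (1.27), CAL (1.08) and AG (1.70) passed, against 6.64%. AG met the RPKM level there only through atcep1 (12.1 against 3.02 in wild type). At stage C again only FUL passed (1.30), against 8.15%. No member was lower by 2-fold at any stage, against 3.25%, 4% and 3.89% of loci. AG stood just under the limit at stage A (0.98), and with a pseudocount of 0.1, or after centring on the median ratio, 2 members passed there.

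**Figure D4:**
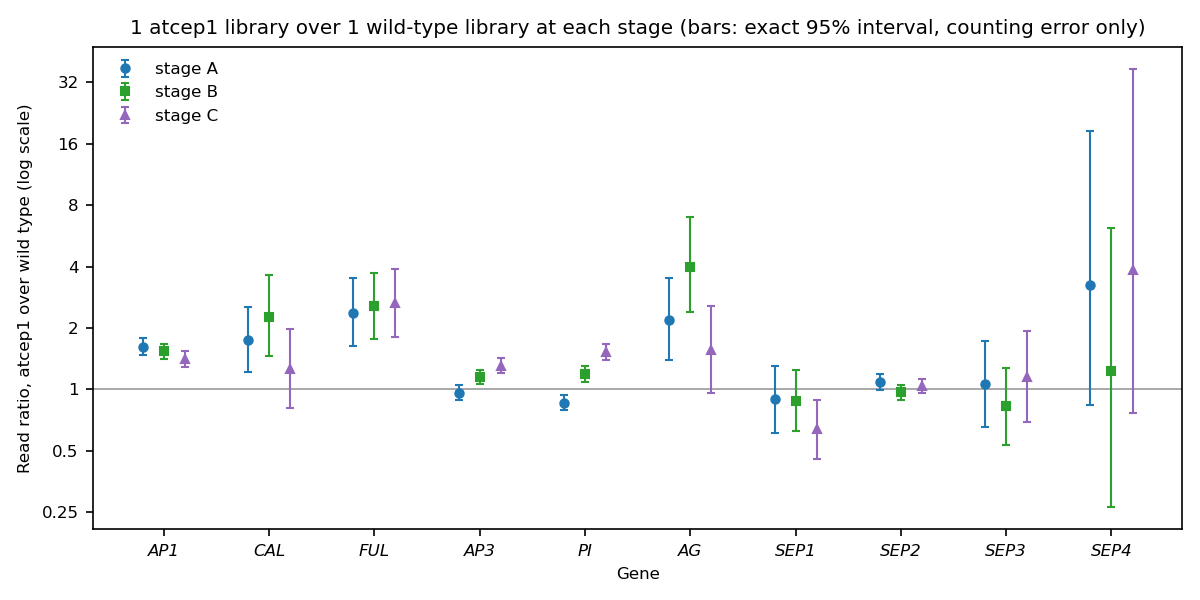
Ratio of reads, scaled to library totals, atcep1 over wild type, for each gene at stages A (circles), B (squares) and C (triangles), on a log axis with exact 95% intervals for counting error only. The ratios of FUL lie between 2.38 and 2.64, those of PI run from 0.862 to 1.53, and the intervals of SEP4 reach 37.2.

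Of the 9 members tested, 0 were called from stage A to B, against 4.36% of loci higher and 0.484% lower, and 0 were called at the next step, B to C, against 4.28% higher and 2.36% lower (edgeR). At an unadjusted p below 0.05 there were 2 for the first step and 0 for the other. These 2 were AP1, with a log2 fold change of 0.36 ± 0.11 (adjusted p = 0.125, edgeR), and SEP2, with 0.28 ± 0.11 (adjusted p = 0.268, edgeR). The median over the members was 0.13 in the step to stage B and -0.12 in the step to stage C. Over all loci tested it was 0.01 and -0.02.

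In wild type, AP3 and PI had fewer reads at stage C than at stage B. From stage B to C the wild-type read ratio was 0.760 for AP3 (0.696 to 0.829) and 0.773 for PI (0.701 to 0.852). SEP3 had a wild-type ratio of 0.579 on 50 and 30 reads (0.356 to 0.929), and SEP2 one of 0.917 (0.845 to 0.995). In atcep1 the ratio was 0.864 for AP3 (0.799 to 0.933) and 0.993 for PI (0.914 to 1.08). AP1 at 0.848 (0.786 to 0.914) and AG at 0.576 (0.392 to 0.838) also had atcep1 ratios below 1 in this step. Without the atcep1 stage C library, AP3 was called lower at stage C than at stage B (log2 fold change -0.46, adjusted p = 0.0329, edgeR), and so was PI (-0.49, adjusted p = 0.0481, edgeR). Over all 11 alternatives of this step the adjusted p ran from 0.0329 to 1.00 for AP3 and from 0.0481 to 1.00 for PI.

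Markers of other cell types moved with genotype beside these results. Over all loci tested, 16% were higher in atcep1 and 11.5% were lower. All 10 tapetum genes were higher in atcep1, and their summed RPKM was 50.3 to 664 in wild type and 312 to 2139 in atcep1. Of 8 pollen genes, the 7 tested were all higher, with sums of 22.2 to 1391 in wild type and 204 to 3050 in atcep1; the pollen regulator DUO1 was listed at 0 in wild-type stage C. All 9 genes of dividing cells were lower (sums of 406 to 715 and 243 to 456). Of 8 carpel and ovule genes tested, 0 were higher and 2 were lower, INO (-1.43) and ANT (-0.81), both regulators of ovule and organ growth. Green tissue had 0 higher and 2 lower of 7, and meristem genes had 2 higher and 1 lower of 6, with the stem cell marker CLV3 at 0 in 5 libraries. The 2 green tissue calls, RBCS1B and RBCS3B, held under 7 and 5 of 10 alternatives. Of the meristem calls, CUC2 held under 10, WUS under 8 and CLV1 under 6. The part of these shifts in the results for the organ identity genes was not tested.

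Of 12 activators that act upstream and were tested, 1 was higher and 4 were lower in atcep1, against 16% and 11.5% of all loci, with a median log2 fold change of -0.41. SPL3 (-0.84, adjusted p = 0.00304, edgeR) and SPL4 (-0.87, adjusted p = 0.00461, edgeR), which promote AP1 and FUL at the floral transition, were lower. PAN, an activator of AG, was lower as well (-0.89, adjusted p = 0.0168, edgeR), but not without the libraries of stage A (0.0590) or stage B (0.0974) or with DESeq2 (0.0854), in a range of 0.00946 to 0.0974 over 10 alternatives. WUS, the stem cell regulator that activates AG together with LFY, was higher (1.54, adjusted p = 0.0290, edgeR). Its log2 fold change was 0.95 without stage C and 2.28 without stage A, and limma on log2(RPKM + 1) gave an adjusted p of 0.0503, in a range of 0.00674 to 0.0645.

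LFY, the activator of AP1, AP3 and AG, was not called between genotypes (-0.50, adjusted p = 0.430, edgeR). It was lower at stage B than at stage A (-2.14, adjusted p = 0.0390, edgeR), but without wild-type stage A it was at -1.07 (0.459) and without wild-type stage B at -1.23 (0.333), in a range of 4.87e-04 to 0.459 over 11 alternatives. FD, the partner of FT in activating AP1, fell from stage B to C (-2.25, adjusted p = 0.00310, edgeR).

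Of 8 repressors and boundary regulators tested, 1 was higher and 0 were lower, against 16% and 11.5% of all loci, with a median of -0.09. The one called was SOC1, a flowering-time MADS gene that AP1 represses in the young flower (0.93, adjusted p = 0.00869, edgeR). AP2, which keeps AG out of the outer whorls, was at -0.04 (adjusted p = 0.940, edgeR) and the polycomb gene CLF, which represses AG, at -0.33 (adjusted p = 0.0564, edgeR). Of 3 genes for AG RNA processing, HUA2 was called higher (0.29, adjusted p = 0.0478, edgeR), but under only 3 of its 10 alternatives (adjusted p from 0.0114 to 0.259), and the median was 0.14. Of 3 other floral MADS genes tested, 0 were called (median -0.29).

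Of 11 known targets tested, 1 was higher and 1 was lower, against 16% and 11.5% of all loci, with a median of 0.44. GNC, a greening regulator that AP3 and PI repress, was higher (0.91, adjusted p = 0.00589, edgeR). VDD, an ovule gene regulated by MADS complexes, was lower (-1.12, adjusted p = 0.00873, edgeR). SPL/NZZ, the sporogenesis gene that AG activates, was at 0.71 (adjusted p = 0.0673, edgeR) between genotypes.

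For members whose log2(RPKM + 1) ranged over at least 1, the nearest profiles were sought among 12884 other loci at the same minimum level, as a description over 6 libraries. For AG these were ATL8 (root mean square difference 0.0682), AT3G61920 (0.104) and WRKY25 (0.160). For FUL they were AAC1 (0.103), SSI2 (0.103) and BPS1 (0.107), and for CAL AT5G60250 (0.128), AT5G03990 (0.129) and TCL1 (0.130). SEP4, whose profile rests on 2 to 10 reads, was nearest to AT1G19720 (0.0719), AT4G32190 (0.101) and AT5G38990 (0.107). The nearest member to AG was CAL, at 0.269. With far fewer members than loci to choose from, this distance cannot be set against those above.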

How the data were processed

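RNA from 6 bud libraries was enriched on oligo(dT) beads, copied from random hexamers and read on an Illumina HiSeq, per the labels' protocols; no step marks strand, so antisense reads cannot be told apart. The authors deposited, per the file headers, the count of uniquely mapped reads of each transcript model, its length, its coverage in percent and its RPKM. The submitters' processing notes give the build as TAIR10. Neither aligner nor counter is given in the sources used here. Unlisted models were set to 0, and models were summed to loci.

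Counts were tested with edgeR 4.0.16 in R 4.3.3 (TMM, filterByExpr on genotype, quasi-likelihood F test, stage and genotype additive, 2 residual degrees of freedom), after a check on simulated data. SEs are the log2 fold change over the square root of F. DESeq2 1.42.0, limma 3.58.1, library totals, other filters and left-out libraries were alternatives. Read ratios have exact conditional binomial 95% intervals (SciPy 1.17.1); no interval covers more than counting error, as reads copied by PCR are not independent.

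Coverage was compared with RefSeq TAIR10.1, where all 14 member models had the length given in the files. The 10 members were fixed by name. Members and lists were chosen with earlier results of these data known. All 10 members are named; of 11 further lists, up to 4 genes called between genotypes by size and up to 2 per stage step could be named, and AP2, CLF, LFY and SPL/NZZ between genotypes were named after their values had been seen.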

Additional observations from a re-analysis of the deposited data

Results flagged for a closer look

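PI had read ratios whose intervals lay on opposite sides of 1 in different stages. The ratio of atcep1 to wild type was 0.862 at stage A, 1.19 at stage B and 1.53 at stage C. From stage A to B, PI went down in wild type (ratio 0.815) and up in atcep1 (1.12). Each ratio sets 1 library against 1 library and its interval covers counting error only, so the difference between stages, or between genotypes in the step, was not tested.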

How the results depend on the processing

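AP1, FUL and AG kept their call between genotypes under all 10 alternatives. Leaving out 1 library or stage, the log2 fold change of some members that were not called turned sign. Between genotypes SEP3 ran from -0.094 to 0.21 (-0.0071 with library totals). From A to B, AP3 ran from -0.086 to 0.31, PI from -0.37 to 0.33 and AG from -0.69 to 0.35. From B to C, CAL ran from -0.32 to 0.23, FUL from -0.19 to 0.012, PI from -0.49 to 0.21, AG from -0.61 to 0.44, SEP1 from -0.074 to 0.29 and SEP2 from -0.12 to 0.067. With no filter on low counts AG from A to B was at 0.00056. Of the 16 values that changed sign, 0 were called. Members called from B to C numbered 2 without atcep1 stage C and 0 otherwise, and those past 2-fold at stage A numbered 2 with a pseudocount of 0.1 or centred on the median ratio. Over all loci, 4432 were called between genotypes, 2283 with DESeq2 and 2323 without stage A. With library totals, 2256 were called higher and 2238 lower in place of 2573 and 1859. From A to B 780 were called, and 451 without atcep1 stage A. From B to C 1069 were called, 595 with DESeq2, 365 and 690 with limma and 706 without atcep1 stage B. The causes were not tested. No paired analysis was possible because the labels give no replicate numbers, other than by stage, which the genotype test already holds as a term. Depth limits SEP4, with at most 10 reads.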
